A study of Homo sapiens with 5 samples.

Results

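The genes described here encode receptors of the neurotrophin and GDNF families, with the neurotrophin BDNF. They are 8 listed gene symbols, NTRK2, NTRK3, NGFR, BDNF, RET, GFRA1, GFRA2 and GFRA3, and all 8 are among the 26364 symbols deposited for each of 5 libraries of SH-SY5Y, a human neuroblastoma cell line of sympathoadrenal origin. Each library was the only one of its group. The groups were cells given an siRNA against STAU1 (siSTAU1), an siRNA against UPF1 (siUPF1) or a control siRNA (siControl), and cells labelled Differentiation and Nondifferentiation. All were grown in medium with 10% serum and 1% penicillin and streptomycin. The labels list 50 uM retinoic acid for both Differentiation and Nondifferentiation and none for the siRNA groups, and they give no treatment times. STAU1 is a double-stranded RNA binding protein that recruits the helicase UPF1 to mRNAs for Staufen-mediated decay, and the study compared depletion of either factor with neuronal differentiation.

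Neurotrophins act through TRK receptor tyrosine kinases and through the p75 receptor. NTRK2 encodes TrkB, the receptor of BDNF, NTRK3 encodes TrkC, the receptor of neurotrophin 3, and NGFR encodes p75, which binds all mature neurotrophins and their precursors. GDNF family ligands bind a GFRA coreceptor anchored in the membrane, and the complex then activates the kinase RET. GFRA1 prefers GDNF, GFRA2 neurturin and GFRA3 artemin. Sympathetic neurons depend on both families during development, and retinoic acid has long been used to make neuroblastoma cells responsive to BDNF.

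Of the promoters in the table, 1 of 2 for RET and 2 of 4 for NTRK2 are shown because both genes were far higher in Differentiation, and that of NTRK3 is shown because it was listed at 0 in every library. Each runs from 250 bases before to 50 bases after an annotated start, 5′ to 3′, from RefSeq on GRCh38.p14. Capitals mark hexamers that retinoic acid receptors are known to bind as one arm of a repeat: AGGTCA, or its forms GGGTCA and AGTTCA, or GGTTCA, each on either strand.
RET, chr10:43076819-43077118, plus strand: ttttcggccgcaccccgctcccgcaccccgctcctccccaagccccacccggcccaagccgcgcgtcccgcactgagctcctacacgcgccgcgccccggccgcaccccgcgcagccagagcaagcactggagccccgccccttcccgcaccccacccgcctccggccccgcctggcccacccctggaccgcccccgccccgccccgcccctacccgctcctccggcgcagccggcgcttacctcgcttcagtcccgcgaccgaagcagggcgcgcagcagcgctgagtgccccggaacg
NTRK2, chr9:84669056-84669355, plus strand: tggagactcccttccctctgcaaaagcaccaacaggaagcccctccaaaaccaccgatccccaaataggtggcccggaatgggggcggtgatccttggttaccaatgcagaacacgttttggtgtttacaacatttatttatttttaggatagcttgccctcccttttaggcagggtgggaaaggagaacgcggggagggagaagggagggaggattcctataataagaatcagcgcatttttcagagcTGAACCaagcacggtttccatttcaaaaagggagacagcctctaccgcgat
NTRK2, chr9:84669783-84670082, plus strand: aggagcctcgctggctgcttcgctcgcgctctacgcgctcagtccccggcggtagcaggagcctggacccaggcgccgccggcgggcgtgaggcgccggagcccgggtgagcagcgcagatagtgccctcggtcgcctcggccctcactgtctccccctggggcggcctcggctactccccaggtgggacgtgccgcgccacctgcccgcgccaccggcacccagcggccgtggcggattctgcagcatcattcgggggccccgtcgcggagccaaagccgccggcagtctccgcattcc
NTRK3, chr15:88256690-88256989, minus strand: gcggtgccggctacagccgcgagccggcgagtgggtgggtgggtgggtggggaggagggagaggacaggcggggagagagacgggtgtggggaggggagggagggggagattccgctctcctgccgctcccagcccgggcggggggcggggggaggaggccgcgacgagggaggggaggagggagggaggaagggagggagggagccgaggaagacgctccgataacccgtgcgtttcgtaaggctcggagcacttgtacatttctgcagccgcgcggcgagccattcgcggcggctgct
The table held 17 promoters for 6 of the 8 genes and none for NGFR and GFRA2. The hexamer AGGTCA, on either strand, was in 0 of the 17, against 13.8% of all 35116 promoters in the table. Its direct repeats with a gap of 5 bases (DR5) and of 2 bases (DR2) were also in 0 of the 17, and in 2 and 1 of all promoters. The other 3 hexamers were searched after AGGTCA had been found in none. Any of the 4 was in 5 of the 17, those of GFRA1 and NTRK2, against 38.6% of all promoters, and a DR5 of any 2 of them was in 0 of the 17. The first NTRK2 window holds TGAACC, which is GGTTCA on the other strand. Of the NTRK2 windows not printed, that at chr9:84701355-84701654 holds GGTTCA. The printed RET window holds none of the 4, is 78.7% G or C and has 41 CpG pairs, against medians of 58.7% and 14 over all promoters. The other RET window, chr10:43104515-43104814, also holds none and has 58.7% G or C and 10 CpG pairs.

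The deposited values are log2 expression values from sequencing of the 3' ends of polyadenylated RNA, so the level of a gene does not scale with transcript length. They share 1 distribution over the libraries, with a highest value of 18.01 in each and upper quartiles of 8.63 to 8.64. Genes listed at 0, apparently without reads, numbered between 9583 and 9932 per library. Up to 300 reads, the number behind a value was read from its place among the distinct values of its library; in Differentiation this may be off by about 1 read at the lowest values. Near the low end 1 read was worth 0.620 linear units in Differentiation and between 1.04 and 1.27 in the others. All 8 chosen markers of sympathoadrenal neuroblasts were above 0 in every library, with medians between 11.06 and 12.55. The targeted mRNAs were lower in their libraries: STAU1 stood at 11.34 in siSTAU1 and 12.87 in siControl, and UPF1 at 9.20 in siUPF1 and 10.74 in siControl. Since each group is a single library, differences could not be set against a spread between replicates, and no test or p-value is given. In RNA from whole cultures, fewer cells that express a gene and less of its RNA per cell cannot be told apart.

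In Differentiation 3 receptor genes stood far above Nondifferentiation: NTRK2, RET and GFRA2. A gene was measured in a comparison when its value in at least 1 of the 2 libraries reached their median over nonzero values, 7.76 here on the log2 scale, and was counted as higher or lower at 2-fold. Of the 8 genes 4 were measured, BDNF being the fourth; 3 were counted as higher, where 10.4% of the 9064 measured genes were, and 0 as lower, where 10.9% were. NTRK2 and GFRA2 reached the floor only through Differentiation, so their place on the higher side follows from the filter. RET and BDNF reached it in both libraries.

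NTRK2 had a log2 value of 8.84 in Differentiation, with 0 listed for Nondifferentiation, siSTAU1, siUPF1 and siControl. Differentiation was thus the single library in which TrkB RNA was detected, where 6122 genes stood above it. No fold is given against a value of 0. NTRK3 was listed at 0 in all 5 libraries, so of the 2 TRK genes in this set 1 was detected and 1 was not. GENCODE 29 lists 8 protein-coding transcripts of NTRK2, whose 3' ends form 5 groups more than 500 bases apart. The full-length receptor and the truncated forms without a kinase domain end differently, and the deposited value, 1 per symbol, does not separate them.

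RET had a log2 value of 13.79 in Differentiation and 8.38 in Nondifferentiation, 42.4-fold higher at a log2 fold of 5.41. It had 7.78 in siSTAU1, 8.77 in siUPF1 and 8.31 in siControl. The 4 libraries other than Differentiation thus spanned 0.99 log2 units, and Differentiation lay 5.01 above the highest of them. In Differentiation 182 genes had a higher value than RET, against 7110 in Nondifferentiation. The difference was the 28th highest of the 9064 measured genes. RET protein is made in forms with different C-terminal tails, whose transcripts differ at the 3' end, and these are not separated in the files.

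GFRA2, which encodes the coreceptor of neurturin, had 10.10 in Differentiation and 5.49 in Nondifferentiation, 24.5-fold higher at a log2 fold of 4.62. It had 5.81 in siSTAU1, 7.36 in siUPF1 and 6.69 in siControl. GFRA2 thus varied more than RET among the libraries other than Differentiation, over 1.88 log2 units, and Differentiation lay 2.74 above the highest of them. The Nondifferentiation value rested on about 42 reads, with a 95% exact Poisson interval of 30.3 to 56.8, which covers counting error only. With siControl in place of Nondifferentiation the log2 fold was 3.41.

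The other coreceptors were low. GFRA3, the artemin coreceptor, had 2.68 in Differentiation and 3.68 in Nondifferentiation, from about 11 and 12 reads. The value was thus 1 log2 unit lower on nearly equal read numbers, 1 read being worth less in Differentiation, and no difference was detectable at this depth. GFRA3 had 3.66 in siSTAU1, 3.04 in siUPF1 and 3.26 in siControl, from about 10, 7 and 7 reads. GFRA1, the GDNF coreceptor, had 1.77 in Differentiation, from about 6 reads, and was listed at 0 in Nondifferentiation. Within the family, GFRA2 was therefore the coreceptor with the highest value in every library.

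NGFR had 3.41 in Differentiation, from about 18 reads with an interval of 10.7 to 28.4, and 0.26 in Nondifferentiation, from 1 read. It had 2.58 in siSTAU1, from 5 reads, and 1.26 in siUPF1, from 2 reads, and was listed at 0 in siControl. p75 RNA was thus scarce in all 5 libraries and highest in Differentiation, far below the floor. NGFR is also a marker of Schwann cells. Of 8 chosen Schwann and glial markers 4 were at 0 in Differentiation and 4 in Nondifferentiation, SOX10 among them in both. The summed level of the 8 was 6.96 in Differentiation and 6.01 in Nondifferentiation on the log2 scale. It was 5.90 in siSTAU1, 6.47 in siUPF1 and 5.54 in siControl. Their part in the NGFR values was not tested.

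BDNF, the ligand of TrkB, was on the other side. It had 10.78 in Differentiation and 11.44 in Nondifferentiation, so it was 1.59-fold lower, at a log2 fold of -0.66, and short of the threshold. It had 11.14 in siSTAU1, 10.38 in siUPF1 and 10.79 in siControl. Differentiation therefore lay inside the range of the other 4 libraries, and against siControl its log2 fold was -0.01. BDNF was the gene with the highest value of the set in the 4 libraries other than Differentiation, where RET exceeded it.

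**Figure D1:**
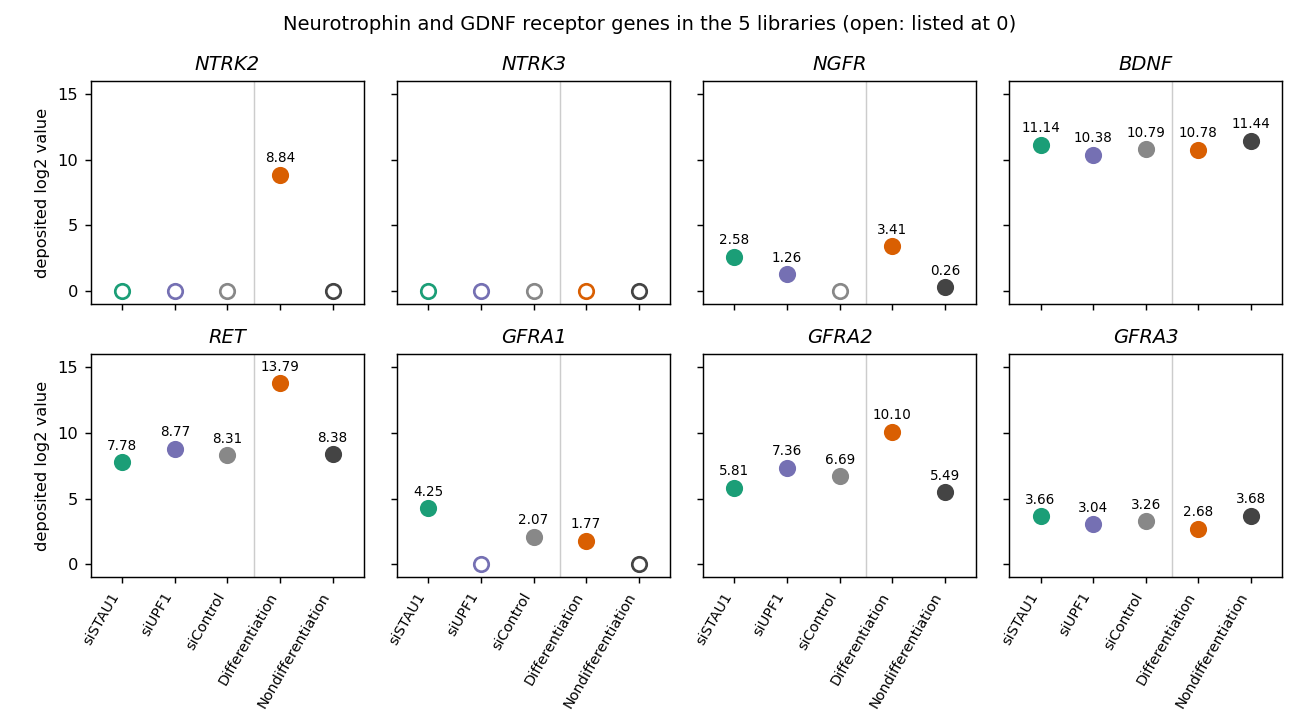
Deposited log2 value of each of the 8 genes (vertical axis) in the 5 libraries (horizontal axis), 1 point per library with its value, open where the gene is listed at 0. NTRK2 has a point above 0 in Differentiation alone, at 8.84, and RET and GFRA2 stand at 13.79 and 10.10 there, above their values in the other 4 libraries.

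BDNF-AS, the antisense RNA of the BDNF locus, differed the other way in this pair. It had 7.41 in Differentiation and 6.27 in Nondifferentiation, from about 239 reads with an interval of 210 to 271 and 74 reads with one of 58.1 to 92.9, a log2 difference of 1.14. Both values lay below the floor, so it was not counted. BDNF stood 10.3-fold above BDNF-AS in Differentiation and 36.1-fold above it in Nondifferentiation. In siSTAU1, siUPF1 and siControl it stood 26.4-fold, 23.5-fold and 26.8-fold above it. In GENCODE 29 the 2 genes lie on opposite strands and share 701 exon bases, which are 9.06% of the BDNF exons. The sources used here do not say whether counting used strand, so reads in the shared part cannot be assigned to either.

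The order of the 8 genes by level was different in the 2 libraries of this pair. In Differentiation RET was highest at 13.79, followed by BDNF, GFRA2, NTRK2 at 8.84, NGFR, GFRA3 and GFRA1, with NTRK3 listed at 0. In Nondifferentiation BDNF was highest at 11.44, followed by RET, GFRA2, GFRA3 and NGFR, and NTRK2, NTRK3 and GFRA1 were listed at 0. RET stood 12.9-fold above GFRA2 in Differentiation and 7.45-fold in Nondifferentiation. In siSTAU1, siUPF1 and siControl the RET value was 3.92-fold, 2.66-fold and 3.08-fold that of GFRA2.

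None of the 8 genes passed the threshold in either knockdown. In siSTAU1 against siControl 2 were measured, RET and BDNF, with 0 counted as higher, where 0.0946% of 8454 measured genes were, and 0 as lower, where 0.106% were. In siUPF1 against siControl the same 2 were measured, with 0 higher, where 0.401% of 8475 genes were, and 0 lower, where 0.142% were. Shares this small leave little to compare a count over 2 genes with. The differences below 2-fold are given as values of these libraries.

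RET had 7.78 in siSTAU1 and 8.31 in siControl, a log2 fold of -0.53, from about 192 reads with an interval of 166 to 221 and 269 reads with one of 238 to 303. In this pair RET reached the floor, 7.84 on the log2 scale, only through siControl, so its place on the lower side follows from the filter. Against the same siControl value siUPF1, at 8.77, had a log2 fold of 0.47. GFRA2 had 5.81 in siSTAU1, 7.36 in siUPF1 and 6.69 in siControl, from about 45, 156 and 84 reads, for log2 differences of -0.88 and 0.67 below the floor. Both genes of the neurturin receptor were therefore lowest in siSTAU1 and highest in siUPF1 among the siRNA libraries, where BDNF had the opposite order. BDNF had log2 folds of 0.36 in siSTAU1 and -0.41 in siUPF1. The 2 comparisons share siControl. Taken directly, siUPF1 minus siSTAU1 was 0.99 for RET, 1.55 for GFRA2 and -0.76 for BDNF on the log2 scale.

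These differences depended on the library set against. siControl against Nondifferentiation had 2 of the 8 measured and 0 counted as higher, where 0.222% of 8547 genes were, and 0 as lower, where 0.573% were. BDNF had a log2 fold of -0.65 in that pair, RET -0.08, and GFRA2, below the floor, 1.20. The BDNF and GFRA2 gaps between siControl and Nondifferentiation were therefore larger than those between either knockdown and siControl. With Nondifferentiation in place of siControl, BDNF turned to -0.30 in siSTAU1 and was counted as lower in siUPF1, at -1.06. GFRA2 turned to 0.32 in siSTAU1 and had 1.88 in siUPF1. RET had -0.60 in siSTAU1 and 0.39 in siUPF1.

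**Figure D2:**
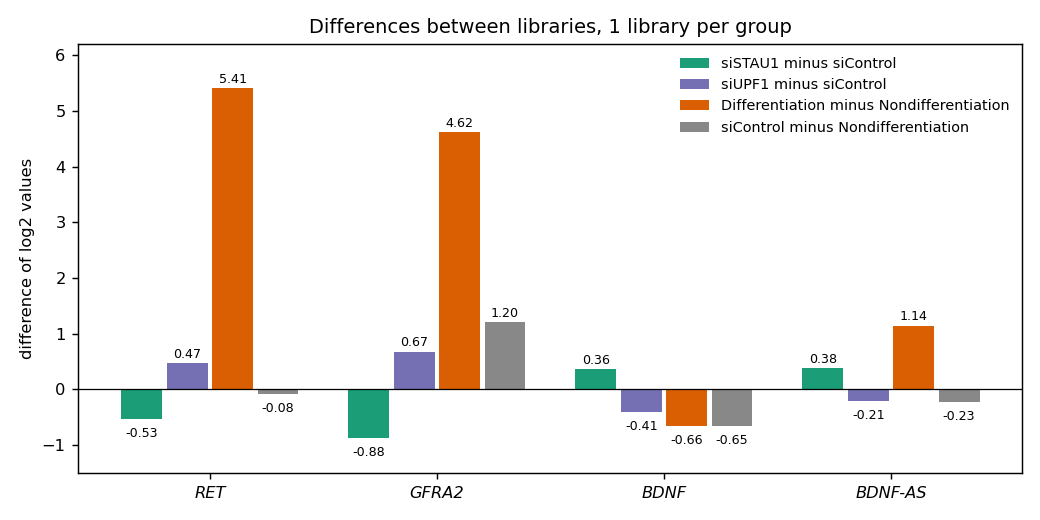
Difference of deposited log2 values (vertical axis) between 2 libraries for RET, GFRA2, BDNF and BDNF-AS, 1 bar per comparison and 1 library per group. RET and GFRA2 stand at 5.41 and 4.62 in Differentiation minus Nondifferentiation, and RET, GFRA2 and BDNF have opposite signs in the 2 knockdown comparisons, which share siControl.

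GFRA1 had its highest value in siSTAU1. It stood at 4.25 there, from about 15 reads with an interval of 8.40 to 24.7. It was listed at 0 in siUPF1 and stood at 2.07 in siControl, from 3 reads with an interval of 0.619 to 8.77. GFRA1 and RET are also expressed in oestrogen receptor-positive breast cancer cells. A list of luminal epithelium markers was chosen with earlier results of these data known, so it is not independent of them. Its 10 markers were highest in siSTAU1 as a group. Their summed level on the log2 scale was 9.92 in siSTAU1, 8.78 in siUPF1, 8.50 in siControl, 8.64 in Differentiation and 8.24 in Nondifferentiation. GREB1 alone had 8.30 in siSTAU1 and 8.22 in siControl. None of the 10 was at 0 in siSTAU1 or Differentiation, against 2 in siUPF1, 5 in siControl and 5 in Nondifferentiation. In Differentiation, where 1 read was worth less, TFF3 was above 0 reads through 1 read. EPCAM went the other way, at 2.26 in siSTAU1 and 2.49 in siControl, from about 4 reads each. ESR1, the oestrogen receptor, had 5.71 in siSTAU1 and 4.74 in siUPF1, with 0 listed for siControl. It had 3.41 in Differentiation, with 0 listed for Nondifferentiation. RET had its lowest value in siSTAU1, at 7.78. The part of RNA from such cells in the GFRA1 and RET values was not tested.

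**Figure D3:**
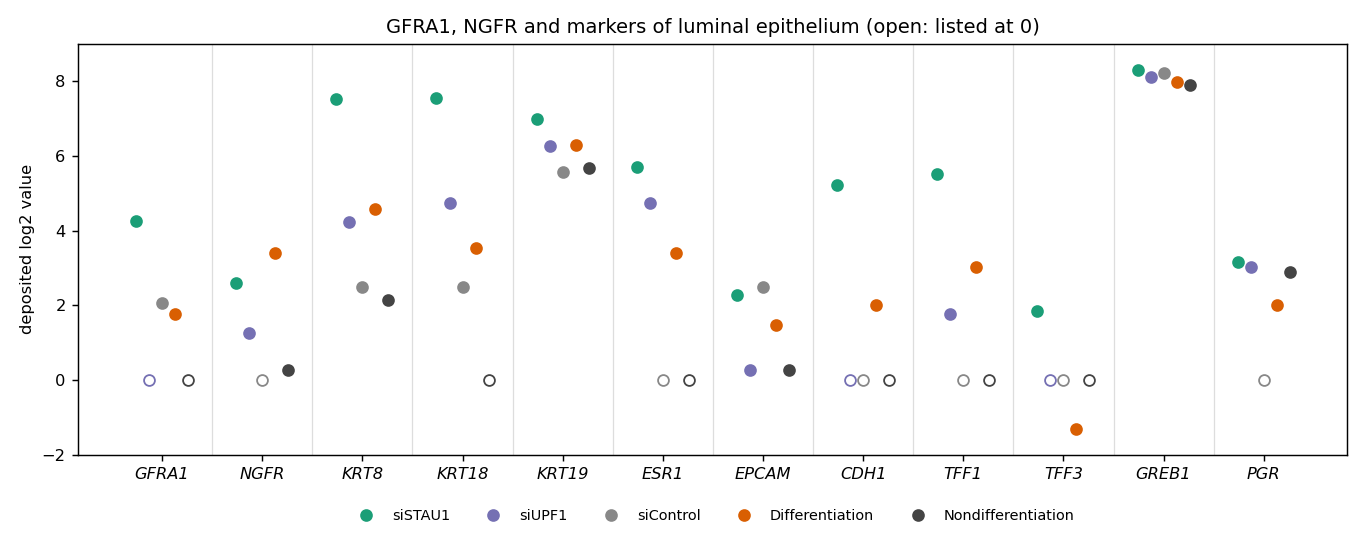
Deposited log2 value (vertical axis) of GFRA1, NGFR and 10 markers of luminal epithelium in the 5 libraries, 1 point per library, open where a gene is listed at 0. GFRA1 at 4.25 and KRT8, KRT18, ESR1, CDH1 and TFF1 have their highest values in siSTAU1, while GREB1 lies between 7.90 and 8.30 in all libraries.

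Ligands for these receptors had low values in the same libraries, apart from BDNF and GDF15. NTF3, the ligand of TrkC, had 2.81 in Differentiation, from about 12 reads, and was listed at 0 in Nondifferentiation, siSTAU1 and siUPF1, with 1.49 in siControl. GDNF was listed at 0 in Differentiation, Nondifferentiation and siUPF1 and had 2.58 in siSTAU1 and 2.81 in siControl, from 5 reads each. NRTN, the neurturin gene, had 5.19 in Differentiation and 5.31 in Nondifferentiation. ARTN, the artemin gene, had 6.14 in Differentiation and 5.27 in Nondifferentiation. GDF15, a distant relative that signals through GFRAL and RET, was the single ligand of the list above the floor, at 10.64 in Differentiation and 9.84 in Nondifferentiation. GFRAL and GFRA4 were listed at 0 in all 5 libraries.

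Around the receptors, 73 further genes of the neurotrophin and GDNF pathways were listed in 8 groups, and 42 were measured in Differentiation against Nondifferentiation. Of these 8 were counted as higher and 2 as lower, where 10.4% and 10.9% of all measured genes were. Their median log2 fold was 0.54, against 0.02 over all measured genes, and 0.34 with the floor at the lower quartile or with none. SORL1, PLAT and SPRY1 reached the floor only through Differentiation, so their place on the higher side follows from the filter. Among the other neurotrophin receptors, 4 of 6 were measured and 1 was higher. SORL1, a sorting receptor of the sortilin family, had 8.96 in Differentiation and 7.62 in Nondifferentiation, while SORCS1 had 11.20 and 11.49. NCAM1, an adhesion molecule that also serves as a GDNF receptor, was counted as higher at 12.82 and 11.72.

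Of 24 adaptors of TRK and RET kinases 15 were measured, 2 higher and 1 lower, close to the shares over all genes, with a median log2 fold of 0.42. SH2B1, an adaptor that binds activated TRK receptors, had 14.29 in Differentiation and 13.06 in Nondifferentiation. KIDINS220, a membrane scaffold phosphorylated by TRK kinases, had 11.86 and 10.75. DOK4, a docking protein that binds RET, was lower at 9.85 and 11.74, a log2 fold of -1.89. Of 8 partners of p75 5 were measured and 1 was higher, BEX1, at 10.44 in Differentiation and 8.90 in Nondifferentiation. TRAF6, which links p75 to NF-kappaB, had a log2 fold of -0.58, from about 210 reads in Differentiation and 216 in Nondifferentiation. It reached the floor only through Nondifferentiation, so its place on the lower side follows from the filter.

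The largest difference in these groups belonged to PLAT. It encodes tissue plasminogen activator, which makes plasmin, a protease that cleaves the BDNF precursor. PLAT had 12.79 in Differentiation and 6.97 in Nondifferentiation, a log2 fold of 5.82, and 7.43 in siSTAU1, 7.18 in siUPF1 and 6.94 in siControl. The other 2 measured processing genes had log2 folds of 0.69 for FURIN and -0.03 for PCSK7. Of 17 ERK targets and feedback genes 13 were measured, 2 higher and 1 lower, again close to the shares over all genes. SPRY1, a feedback inhibitor that restrains RET signalling in the mouse kidney, had 10.02 in Differentiation and 6.24 in Nondifferentiation. ETV1, a transcription factor downstream of ERK, had 13.44 and 12.32. DUSP4, a phosphatase that turns ERK off, was lower at 10.05 and 11.50. It had 10.60 in siSTAU1, 10.69 in siUPF1 and 10.32 in siControl, so its Nondifferentiation value was the highest of the 5 libraries.

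**Figure D4:**
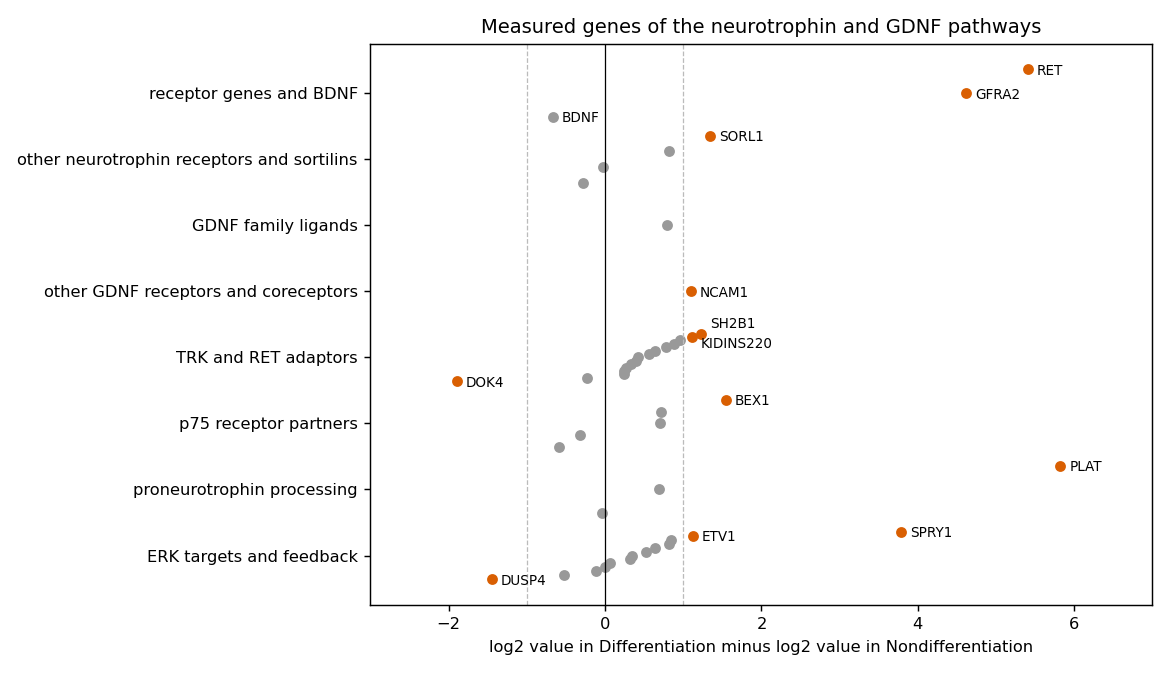
Difference of deposited log2 values, Differentiation minus Nondifferentiation (horizontal axis), for the measured genes of each group (rows), 1 point per gene. Coloured points lie past the dashed 2-fold lines; NTRK2, listed at 0 in Nondifferentiation, is not drawn. RET, GFRA2, PLAT and SPRY1 lie furthest to the right, and DOK4 and DUSP4 furthest to the left.

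In the knockdown libraries these groups lay close to siControl. In siSTAU1 against siControl 39 of the 73 genes were measured and 0 were counted in either direction, with a median log2 fold of 0.11, against 0.01 over all measured genes and -0.0153 with Nondifferentiation in place of siControl. The highest was FURIN at 0.52 and the lowest the phosphatase PTPN11 at -0.50. ETV5 had 0.48, FRS2, a docking protein of TRK receptors, 0.41, TRAF6 0.26, GDF15 0.14, PCSK7 0.13 and SORT1 0.11. TRAF6 reached the floor only through siSTAU1, so its place on the higher side follows from the filter. NCAM1 had -0.01, BEX1 -0.20 and VGF -0.35. In siUPF1 37 were measured and 0 were counted, with a median of 0.08 against -0.01 over all measured genes and -0.0347 with Nondifferentiation in place of siControl. GDF15 had 0.75, FURIN 0.48, EGR1 0.47, SH2B1 0.31, NCAM1 0.23, NGFRAP1 0.16, PCSK7 0.11, SORCS1 0.07 and BEX1 0.02, while SORT1 had -0.14, ETV1 -0.16 and PTPN11 -0.50. In siControl against Nondifferentiation 37 were measured, 0 higher and 4 lower, with a median of -0.05 against 0.00. The 4 were GDF15 at -1.25, EGR1 at -1.72, VGF, a secreted peptide precursor induced by neurotrophins, at -2.10 and DUSP4 at -1.18. In that pair DOK1 had 0.61, DUSP6 0.39, BEX1 0.24 and NCAM1 0.07, and SORT1 had -0.15, PCSK7 -0.24, SORCS1 -0.28, ARHGDIA -0.36, CBL -0.55 and FURIN -0.60.

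The genes with the most similar pattern were found by the root mean square difference of log2 values over the 5 libraries, each gene centred on its own mean, among 9216 genes that reached a value of 7.81 in any library. For RET, GFRA2 and NTRK2, whose Differentiation value stands apart, the measure rests mostly on that library. For RET the nearest were IGFBP6, at a difference of 0.14, RARB at 0.40 and PLAT at 0.44. IGFBP6 had 11.34 in Differentiation and 5.75 in Nondifferentiation, and RARB, a retinoic acid receptor, had 13.11 and 8.36. For GFRA2 they were DNASE1L2 at 0.32, SYT4 at 0.41 and PCDH17 at 0.42. For NTRK2 they were CD177 at 0.14, LINC01587 at 0.29 and LINC01116 at 0.29, all listed at 0 outside Differentiation. For BDNF, whose values differed least of these 4, they were ECD at 0.11, SYN2 at 0.12 and TET1 at 0.13.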

How the data were processed

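Libraries were made with a Lexogen QuantSeq kit from 500 ng of Trizol-extracted total RNA, per the labels' protocols. The authors deposited 1 log2 value per gene symbol and library. The submitters' processing notes name Bowtie2, edgeR and the build hg19 and give no role or version. Their counting tool, gene annotation and strand setting are not stated in the labels or notes. Across libraries, the common distribution of the deposited log2 values looks like quantile normalization, which the values alone show; differences in total RNA between libraries are lost by such scaling.

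Groups were taken from sample titles. The genes and lists were chosen with earlier results of these data known. Folds are differences of deposited log2 values, with the floor at the median of nonzero values and a 2-fold threshold. No test was run, with 1 library per group. Named were all 8 genes, their antisense genes, pathway genes past 2-fold, the highest and lowest measured gene of each pathway list, and the 3 genes of most similar pattern. Some genes so chosen are not reported here. No total read count was available, and intervals cover counting error only. Promoters came from RefSeq on GRCh38.p14, matched by symbol, and transcripts from GENCODE 29, also on GRCh38, so no gene positions are printed on hg19. Alternatives changed the floor, the threshold, a pseudocount of 16 linear units, the centring and the library set against. Steps were tested on simulated data. Python 3.11.15 was used with pandas 2.3.3 and numpy 2.4.6, scipy 1.17.1 for intervals and matplotlib 3.10.9 for plots.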

Additional observations from a re-analysis of the deposited data

How the results depend on the processing

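NTRK2, RET and GFRA2 were the genes counted as higher in Differentiation under every alternative run with either floor, a pseudocount, centring, either threshold or siControl in place of Nondifferentiation. Without a floor there were 5 higher and 1 lower, through NGFR, GFRA1 and GFRA3, which had few reads. At 1.5-fold 1 was lower, BDNF. Without a floor 2 were higher in siSTAU1, 1 was higher and 1 lower in siUPF1 and 2 were higher in siControl against Nondifferentiation, GFRA2 among the last. With the floor at the lower quartile 1 was higher in that pair, GFRA2, and at 1.5-fold 1 was lower, BDNF. With Nondifferentiation in place of siControl 1 was lower in siUPF1, BDNF. The pathway medians were then -0.0153 in siSTAU1 and -0.0347 in siUPF1. In Differentiation the pathway median was 0.34 without a floor, 0.34 with the lower floor and 0.66 against siControl.

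Counts over all genes moved most with the floor, since more genes with few reads enter. Higher and lower genes without a floor numbered 1353 and 1298 in siSTAU1, 1401 and 1297 in siUPF1, 2828 and 3444 in Differentiation and 1260 and 1428 in siControl against Nondifferentiation. With the floor at the lower quartile they numbered 161 and 147, 229 and 169, 1668 and 1772, and 223 and 273, in the same order. At 1.5-fold they numbered 86 and 109, 254 and 132, 1977 and 1970, and 193 and 274. At 4-fold they numbered 1 and 0, 2 and 0, 213 and 248, and 1 and 8. With Nondifferentiation in place of siControl siSTAU1 had 24 and 54, and siUPF1 had 71 lower. With the pseudocount 12 genes were higher in siControl against Nondifferentiation. The other 76 values of this kind stayed within 1.5 times the count or 0.1 of the median. A scale of reads relative to library totals was planned and not run, because the order of values gives reads only at the low end and no total. No paired analysis was possible because each group had 1 library. Values under about 20 reads, those of NGFR, GFRA1 and GFRA3, are limited by depth.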

Other observations

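Some genes of these pathways had low values that differed between libraries. LINGO1, a coreceptor in the p75 and RTN4R complex, had 5.67 in Nondifferentiation, from about 48 reads with an exact Poisson interval of 35.4 to 63.6, and was listed at 0 in Differentiation, siSTAU1, siUPF1 and siControl. RTN4R, the Nogo receptor, had 2.38 in Differentiation, 3.89 in Nondifferentiation, 4.66 in siSTAU1, 3.41 in siUPF1 and 3.46 in siControl. GRB7, an adaptor that binds RET, had 4.23 in siUPF1, from about 16 reads, and 2.81 in Differentiation, from about 12 reads, and was listed at 0 in siSTAU1, siControl and Nondifferentiation. PCSK6, a proprotein convertase, stood at 2.0 in Differentiation, 5.89 in Nondifferentiation, 7.02 in siSTAU1, 6.11 in siUPF1 and 6.38 in siControl, below the floor in all.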
